A study of Mus musculus with 6 samples.

Results

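The genes described here encode the regulators of the NRF2 antioxidant pathway: the transcription factors NRF2 (Nfe2l2) and NRF1 (Nfe2l1), the ubiquitin ligase parts KEAP1 (Keap1), CUL3 (Cul3) and RBX1 (Rbx1), the small MAF proteins (Mafg, Mafk and Maff) and the repressor BACH1 (Bach1). They were chosen by name, with earlier results of these data known, and looked up by Ensembl ID in the deposited count table. All 9 were found among 56350 gene IDs, and all 9 were among the 16051 genes that passed the filter on low counts. The study measured liver mRNA by bulk RNA sequencing in 3 wild-type (WT) samples and 3 samples with a hepatocyte-specific knockout of Atg14, called HepKO. Atg14 is needed for the membrane step that begins autophagy. The sources used here give neither the Cre line and the deleted part of Atg14 nor the age, sex and diet of the mice. Nor do the labels say whether each library is a different mouse, so p-values here reflect only the scatter among libraries, which may in part be technical.

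NRF2 is made continuously and destroyed continuously in unstressed cells. KEAP1 binds NRF2 and hands it to a ligase built on CUL3 and RBX1, which tags it for the proteasome. When KEAP1 is blocked, NRF2 enters the nucleus, pairs with a small MAF protein and binds antioxidant response elements in genes for glutathione synthesis, quinone reduction and detoxification. BACH1 also pairs with small MAF proteins and represses the same kind of site, heme releases it, and NRF1 is a related factor best known for driving proteasome genes. In liver the pathway governs much of the response to reactive drugs and oxidants. The counts measure mRNA only, and the abundance and location of these proteins were not measured.

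Total counts ranged from 33145684 to 48951937 reads per library. Atg14, the targeted gene, had 620 to 796 counts in the WT libraries and 313 to 379 counts in the HepKO libraries. Among the 6 libraries, HepKO replicate 1 stood apart in sex-linked genes. It had 30377 counts of Xist, against 2 to 22 in the other libraries, and 3 counts of the Y-linked gene Ddx3y, against 2596 to 3482. This is the pattern of a female liver in HepKO replicate 1 and of male liver in the others. HepKO replicate 1 is therefore not from the same mouse as the other HepKO libraries. Sex was not balanced between the groups, and its part in the differences was not tested. Where the call of a named gene ended without HepKO replicate 1, the value without that library is given. Summed levels of hepatocyte markers were 96910 to 121500 CPM in WT and 42290 to 53560 CPM in HepKO. CPM are read counts scaled to a common library size, here with the TMM factors described below. By the test used below, 7 of the 8 markers were lower in HepKO. Most of each hepatocyte sum was Alb, with 90310, 77110 and 68820 CPM in WT and 29490, 35500 and 36370 CPM in HepKO. Summed macrophage and Kupffer cell markers were 170 to 339 CPM in WT and 478 to 837 CPM in HepKO, with 7 of 8 higher. Summed cholangiocyte markers were 44.0 to 61.9 CPM in WT and 148 to 561 CPM in HepKO (4 of 6 higher), and stellate cell markers were 188 to 284 and 509 to 630 CPM (4 of 8 higher). Most of each cholangiocyte sum was Spp1, with 35.2, 54.4 and 39.9 CPM in WT and 134, 515 and 201 CPM in HepKO. The keratin genes Krt7 and Krt19 overlapped between the groups and were not called (adjusted p = 0.598 and 0.236 by the same test). Summed endothelial markers were 128 to 160 CPM in WT and 147 to 187 CPM in HepKO (1 of 6 higher), and lymphocyte markers were 3.51 to 4.79 and 5.95 to 10.7 CPM (1 of 8 higher). Summed neutrophil markers were 0.703 to 2.09 CPM in WT and 2.92 to 12.8 CPM in HepKO (2 of 2 tested higher), and erythroid markers were 187 to 270 and 98.0 to 131 CPM (3 of 4 tested lower). Of the erythroid genes, Alas2 fell most, from 85.4, 100 and 149 CPM in WT to 9.97, 25.0 and 36.3 CPM in HepKO. The globin genes Hba-a1 and Hbb-bt had log2 ratios of HepKO to WT of -0.47 and -0.43. Hbb-bs was not called (log2 ratio -0.28, adjusted p = 0.0663), and the call of Hbb-bt ended without HepKO replicate 1 (-0.43, adjusted p = 0.0656). Leaving out a library moved the counts of markers called. Hepatocyte markers called lower went to 4 without WT replicate 1 or 3, and to 5 in each other such fit. Macrophage markers called higher went to 6 without WT replicate 3 or HepKO replicate 3, and to 8 without HepKO replicate 2. Cholangiocyte markers called higher went to 2 without WT replicate 1, WT replicate 3 or HepKO replicate 2. Erythroid markers called lower went to 1 without WT replicate 2, WT replicate 3, HepKO replicate 2 or HepKO replicate 3. Endothelial markers called higher went to 2 without WT replicate 1 or 2, lymphocyte markers to 3 without WT replicate 2, and neutrophil markers to 1 without WT replicate 3 or HepKO replicate 3. Over all tested genes, the same test called 19.5% higher and 18.7% lower. With library totals in place of the TMM factors, 4 hepatocyte and 1 erythroid markers were called lower. Those called higher were then 8 macrophage, 6 stellate cell, 4 cholangiocyte, 4 endothelial, 2 lymphocyte and 2 neutrophil markers. Library totals called 46.4% of all tested genes higher and 5.84% lower. None of these markers was at 0 in every library. In bulk tissue, fewer cells of a type and less RNA per cell cannot be told apart, and the part of cell composition in the differences below was not tested.

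Of the regulator genes, 4 carry the letters of an antioxidant response element core near a transcription start, and the sequence around each match is printed. The search covered RefSeq promoter windows (GRCm38.p6, 250 bases before to 50 after a start), of which all 9 genes had at least 1 and together had 15. The core searched was TGACNNNGC on either strand. In the sequences below, read 5′ to 3′ on the gene's strand, capitals mark the match, which for Mafk and Mafg lies on the opposite strand.
Nfe2l2: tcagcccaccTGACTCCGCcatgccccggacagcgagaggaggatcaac
Mafk: gatcccggaaGCGGTGTCAgtac
Mafg: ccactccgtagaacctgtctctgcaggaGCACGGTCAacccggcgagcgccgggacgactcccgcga
Maff: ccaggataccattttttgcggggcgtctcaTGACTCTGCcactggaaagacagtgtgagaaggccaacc
These runs lie at chr2:75704865-75704913 (minus strand), chr5:139791513-139791535 (plus), chr11:120633731-120633797 (minus) and chr15:79346479-79346547 (plus). The Mafk run lies before the RefSeq start but inside a GENCODE transcript of the gene. The match began at base -240 from the RefSeq start in Nfe2l2, -13 in Mafk, -222 in Mafg and -112 in Maff. So 4 of 9 regulator genes held the core, while 14% of 27025 genes with a window did. By window, 4 of the 15 regulator windows held it, beside 12.4% of all 32851 windows. Of 30 NRF2 target genes with a window, 11 held it. The E-box CACGTG was found in a window of each small MAF gene (Mafk, Mafg and Maff) and of no other regulator, against 8.09% of genes. The cAMP response element TGACGTCA was found in a Maff window alone among the 9 (2.03% of genes). The AP-1 site TGACTCA (5.95% of genes) and the palindromic Maf recognition element were found in none of them, which says only that those letters are not in these windows. All motifs were searched on both strands. A match is a description of the letters in these windows, not evidence that a factor binds there.

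The regulators changed modestly and in both directions. The test was edgeR's quasi-likelihood test of HepKO against WT on counts scaled by the trimmed mean of M-values (TMM), with p-values adjusted over all 16051 genes and genes called at an adjusted p under 0.05. Of the 9 genes, Mafk and Nfe2l2 were higher in HepKO and Mafg and Cul3 were lower, which is 2 called in each direction. Over all tested genes 38.2% were called, 19.5% higher and 18.7% lower, so the share of regulators called was near the background. Differences are given as log2FC, the log2 ratio of HepKO to WT. Its median was -0.05 over the 9 genes and 0.01 over all tested genes. For 5 of the 9 genes every HepKO library lay on the same side of every WT library, which held for 53.5% of all tested genes. Library values are listed in the order of replicates 1 to 3, every CPM value below is on the TMM scale, and values after ± are SD over 3 libraries for CPM and standard errors for log2FC.

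**Figure D1:**
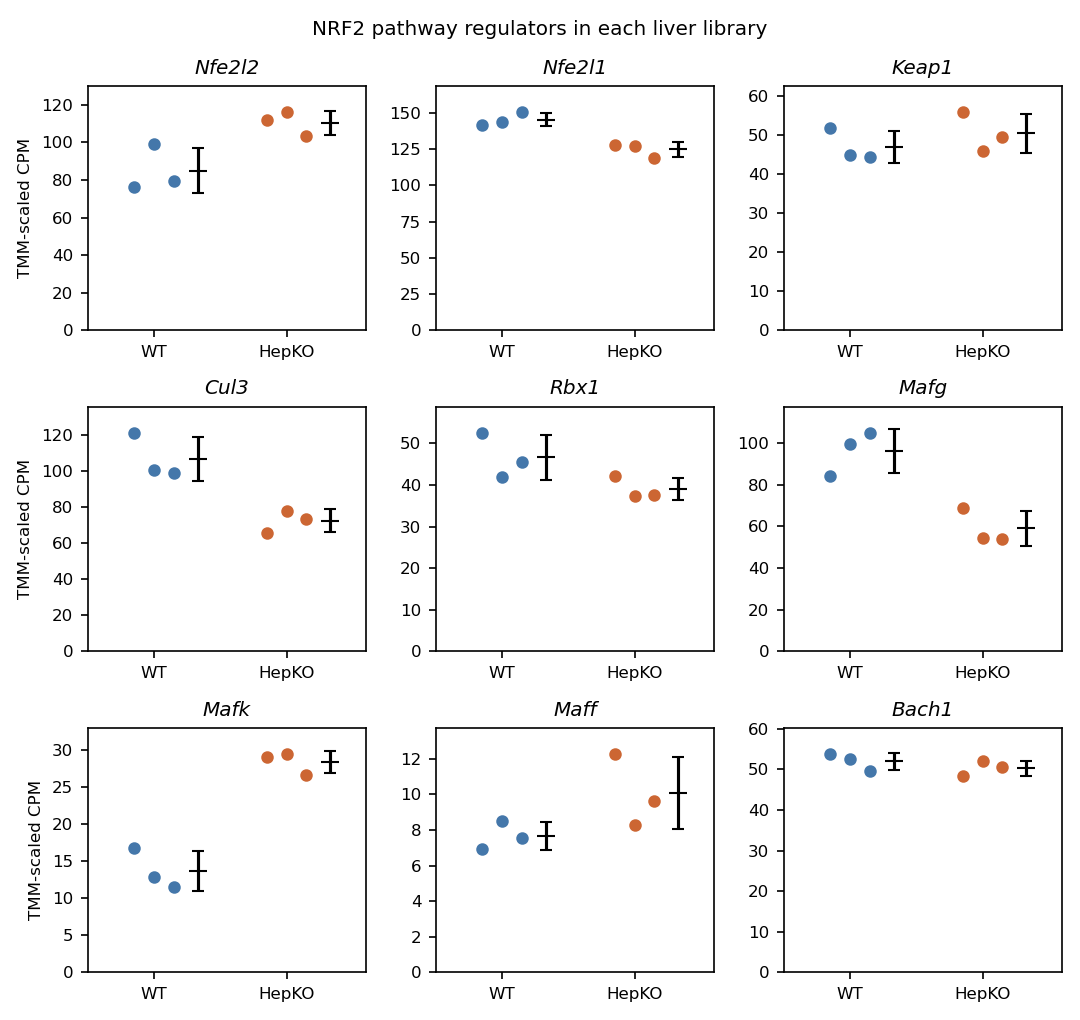
Level of each regulator gene (TMM-scaled CPM, vertical axes from 0) in the 3 WT and 3 HepKO libraries, as points in replicate order, with the mean and SD of each group as a bar to the right. Mafk lies at 11.4 to 16.7 CPM in WT and 26.6 to 29.4 CPM in HepKO, and Mafg and Cul3 lie lower in every HepKO library than in any WT library.

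Nfe2l2, the gene of NRF2 itself, rose slightly. Nfe2l2 (ENSMUSG00000015839.6) lies on chromosome 2 from 75675513 to 75704641 on the minus strand in GRCm38 (mm10). It had 76.4, 98.8 and 79.7 CPM in WT and 112, 116 and 103 CPM in HepKO. WT replicate 2 was the closest to the HepKO libraries, and the groups did not overlap. The means were 85.0 ± 12.1 CPM and 110 ± 6.35 CPM, a 1.30-fold rise (log2FC 0.38 ± 0.12, adjusted p = 0.0393). The call ended when any library other than WT replicate 2 was left out, with log2FC 0.31 to 0.42 and adjusted p of 0.0624 to 0.119 in those 5 fits, 0.37 and 0.0674 without HepKO replicate 1. Without WT replicate 2 the log2FC was 0.52 (adjusted p = 0.0158).

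Nfe2l1, whose NRF1 protein sits in the membrane of the endoplasmic reticulum until it is cut free, did not pass the threshold. Nfe2l1 (ENSMUSG00000038615.17) is on chromosome 11 from 96817414 to 96829968, minus strand. Its levels were 141, 144 and 150 CPM in WT and 128, 127 and 119 CPM in HepKO. All 3 HepKO libraries lay below the WT libraries, by a small margin. The log2FC was -0.22 ± 0.09 with an adjusted p of 0.0825, and it was 0.29 when library totals replaced the TMM factors.

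The genes of the KEAP1 ligase differed from each other. Keap1 (ENSMUSG00000003308.15; chromosome 9, 21229730 to 21239361, minus strand), the adaptor that recognises NRF2, had 51.6, 44.9 and 44.2 CPM in WT and 55.8, 45.9 and 49.5 CPM in HepKO. The groups overlapped, and the log2FC was 0.10 ± 0.11 (adjusted p = 0.501), or 0.02 without HepKO replicate 1. An annotated antisense gene, Gm16754, shares 510 exon bases with Keap1, and it had 3 to 19 counts in any library against 1511 to 3238 for Keap1.

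Cul3 (ENSMUSG00000004364.14; chromosome 1, 80264923 to 80340480, minus strand), the scaffold of the ligase, fell. It had 121, 100 and 99.1 CPM in WT and 65.8, 78.1 and 73.7 CPM in HepKO. The lowest WT library lay above the highest HepKO library. The means were 107 ± 12.3 CPM and 72.6 ± 6.22 CPM, so Cul3 was 1.47-fold lower (log2FC -0.56 ± 0.12, adjusted p = 0.00729). The call ended with library totals (log2FC -0.05, adjusted p = 0.754). With TMM it was called in all 6 fits that left out a library, with log2FC -0.62 to -0.46.

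Rbx1 (ENSMUSG00000022400.9; chromosome 15, 81466296 to 81476369, plus strand), the RING subunit that recruits the ubiquitin-conjugating enzyme, had 52.5, 42.0 and 45.5 CPM in WT and 42.1, 37.3 and 37.5 CPM in HepKO. HepKO replicate 1 lay just above WT replicate 2, so the groups overlapped. The log2FC was -0.26 ± 0.11 and did not pass (adjusted p = 0.105), and it was 0.25 with library totals.

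Among the small MAF genes, which lack an activation domain of their own and serve as partners of NRF2, NRF1 and BACH1, Mafk rose and Mafg fell. Mafk (ENSMUSG00000018143.10; chromosome 5, 139791513 to 139802653, plus strand) had 16.7, 12.9 and 11.4 CPM in WT and 29.0, 29.4 and 26.6 CPM in HepKO. The groups were well apart, and the spread among HepKO libraries was small. The means were 13.7 ± 2.71 CPM and 28.3 ± 1.5 CPM, a 2.07-fold rise (log2FC 1.05 ± 0.15, adjusted p = 0.00142). This was the largest change of the 9 genes, and 76.4% of all tested genes had a smaller absolute log2FC. Tmem184a, which shares 169 exon bases with Mafk on the opposite strand, had 292 to 683 counts in WT and 333 to 528 counts in HepKO, where Mafk had 391 to 494 and 1048 to 1685 counts. The library kit kept strand, but the strand setting of the authors' counting is not given in the sources used here, so reads of the pair may be mixed.

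Mafg (ENSMUSG00000051510.13; chromosome 11, 120625117 to 120633600, minus strand) had 84.4, 99.8 and 105 CPM in WT and 68.9, 54.7 and 53.9 CPM in HepKO. HepKO replicate 1 was the highest of its group and still lay below every WT library. The means were 96.3 ± 10.6 CPM and 59.2 ± 8.45 CPM, so Mafg was 1.63-fold lower (log2FC -0.70 ± 0.13, adjusted p = 0.00475). Without HepKO replicate 1 the log2FC was -0.83 (adjusted p = 0.00221), and the call ended with library totals (log2FC -0.19, adjusted p = 0.25). Sirt7, on the same strand, shares 124 exon bases with Mafg and had 780 to 1308 counts per library, against 2122 to 4002 for Mafg.

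Maff (ENSMUSG00000042622.14; chromosome 15, 79346621 to 79359076, plus strand), the stress-inducible member of the family, was the scarcest, with 206 to 712 counts per library. It had 6.96, 8.50 and 7.55 CPM in WT and 12.3, 8.29 and 9.63 CPM in HepKO. HepKO replicate 1 was the highest library and HepKO replicate 2 lay within the WT range. The log2FC was 0.39 ± 0.18 (adjusted p = 0.128), and it was 0.22 without HepKO replicate 1.

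The make-up of small MAF mRNA can be compared within each library, without a scaling factor. Counts were divided by the exon bases of each gene (5613 for Mafg, 3901 for Mafk and 2594 for Maff) and expressed as a share of the 3 genes. Mafg made up 68.3%, 73.0% and 76.2% in WT and 50.2%, 47.6% and 47.7% in HepKO. The groups did not overlap, and the means were 72.5% ± 3.92 and 48.5% ± 1.5 (SD, n = 3 each; 2-sided exact permutation p = 0.1, the smallest that 3 against 3 libraries can give; 0.15 adjusted over the 3 within-library measures tested). Mafk made up 12% to 19.4% in WT and 30.4% to 36.8% in HepKO. Maff made up 11.9% to 13.4% in WT and 15.6% to 19.3% in HepKO. The summed level of the 3 genes per kilobase, unlike the shares, depends on the TMM factors. On that scale the groups overlapped, with 22.0, 24.4 and 24.5 CPM per kilobase in WT and 24.4, 20.5 and 20.1 CPM per kilobase in HepKO. The sum was not tested under library totals, so the overlap does not show that the total was unchanged.

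**Figure D2:**
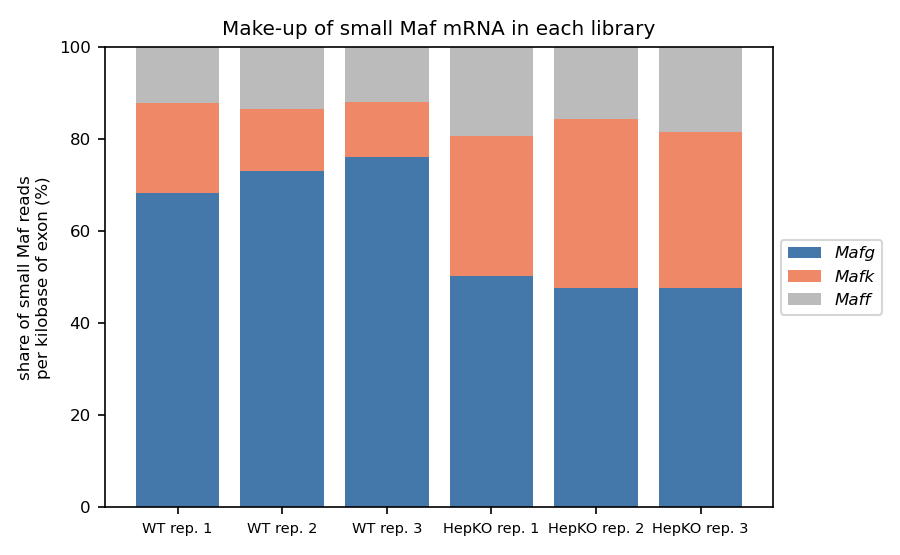
Share of small MAF reads per kilobase of exon (vertical axis, %) taken by Mafg, Mafk and Maff in each of the 3 WT and 3 HepKO libraries, stacked to 100. Mafg takes 68.3% to 76.2% in WT and 47.6% to 50.2% in HepKO, and the Mafk and Maff parts are wider in every HepKO library.

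Bach1, the repressor gene, was not called with TMM scaling. Bach1 (ENSMUSG00000025612.5; chromosome 16, 87698945 to 87733346, plus strand) had 53.7, 52.6 and 49.6 CPM in WT and 48.3, 52.0 and 50.5 CPM in HepKO. The groups overlapped and the spread was small (log2FC -0.05 ± 0.09, adjusted p = 0.69). With library totals the log2FC was 0.46 (adjusted p = 0.00344). With TMM, 6.11% of tested genes had a smaller absolute log2FC.

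Ratios within a library set the activator gene against its repressors. Nfe2l2 counts exceeded Bach1 counts 1.42, 1.88 and 1.61 times in WT and 2.31, 2.23 and 2.05 times in HepKO. Every HepKO library lay above every WT library, with a difference of 0.43 in mean log2 ratio (2-sided exact permutation p = 0.1, the smallest possible; 0.15 adjusted). The Nfe2l2 to Keap1 ratio was 1.48, 2.20 and 1.8 in WT and 2.0, 2.53 and 2.09 in HepKO. Those groups overlapped, and the difference of 0.28 in mean log2 ratio did not pass the test (2-sided exact permutation p = 0.3; 0.3 adjusted). It was 0.14 without WT replicate 1, 0.18 without HepKO replicate 2 and 0.43 without WT replicate 2.

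The directions of the smaller differences rested on the scaling. With library totals in place of TMM factors, the median log2FC of all tested genes moved from 0.01 to 0.52, and 52.2% of genes were called, 46.4% higher and 5.84% lower. Of the regulators, 6 were then called higher and 0 lower. Mafk (log2FC 1.56), Nfe2l2 (0.89), Maff (0.90) and Keap1 (0.61) lay above the median of all genes, and Bach1 (0.46), Nfe2l1 (0.29), Rbx1 (0.25), Cul3 (-0.05) and Mafg (-0.19) lay below it. The 6 called higher were Mafk, Nfe2l2, Maff, Keap1, Bach1 and Nfe2l1. Mafk was called higher in the main analysis and in all 14 alternative fits, with log2FC 0.97 to 1.56.

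**Figure D3:**
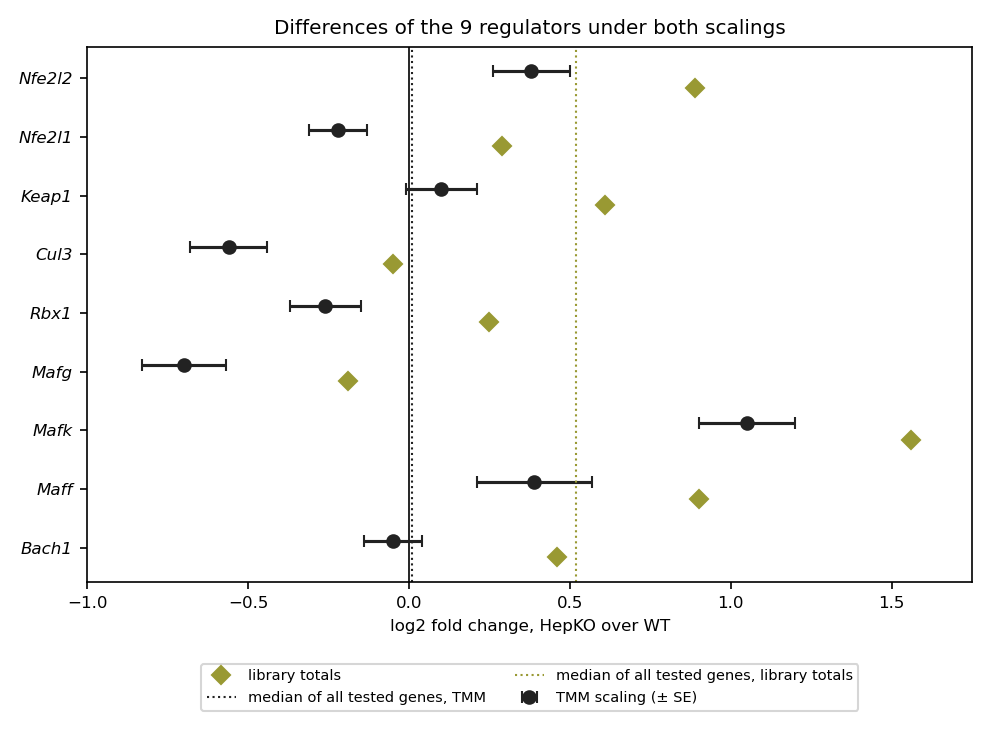
Log2 fold change of the 9 regulator genes (horizontal axis, HepKO over WT) with TMM scaling (circles, bars are standard errors) and with library totals (diamonds, no error drawn), beside the median of all tested genes under each scaling (dotted lines, 0.01 and 0.52). Mafk lies farthest to the right under both scalings, and Mafg, Cul3, Rbx1, Nfe2l1 and Bach1 lie left of the median of all genes under both.

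Set per kilobase of exon, Nfe2l1 had the highest mean level in WT and Nfe2l2 in HepKO. In WT the order was Nfe2l1 (26.7 ± 0.851 CPM per kilobase), Nfe2l2 (22.4 ± 3.19), Cul3 (21.9 ± 2.53), Mafg (17.2 ± 1.89), Rbx1 (10.3 ± 1.18), Keap1 (9.99 ± 0.870), Bach1 (8.41 ± 0.343), Mafk (3.51 ± 0.694) and Maff (2.96 ± 0.299). Libraries of neighbours overlapped for Nfe2l1 and Nfe2l2, Nfe2l2 and Cul3, Rbx1 and Keap1, and Mafk and Maff. In HepKO, Nfe2l2 (29.1 ± 1.67 CPM per kilobase) lay above Nfe2l1 (22.9 ± 0.912) without overlap, followed by Cul3 (14.9 ± 1.28). Mafg (10.5 ± 1.51) overlapped with Keap1 (10.7 ± 1.07), and Mafk (7.27 ± 0.384) lay above Maff (3.88 ± 0.778) without overlap. These levels rest on the length used: with the longest coding transcript (1675 bases in place of 4551), Rbx1 moved to the third place in both groups, and Nfe2l2 headed both orders.

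Over the 6 libraries, the genes whose log2 CPM followed a regulator most closely were Mta3, Pawr and Rbms3 for Mafk (Pearson r 0.996, 0.996 and 0.995) and Slc25a21, Plod1 and Khdrbs3 for Mafg (0.997 each). For Nfe2l2 they were Mfsd4b4, Akap12 and Socs5 (0.989, 0.986 and 0.985), and for Cul3 they were Zfp12, Alkbh8 and Slc17a5 (0.999, 0.998 and 0.997). Each was compared with 9320 genes over points that share library and group. For Mafk 983 of these genes, and for Nfe2l2 407, had an r over 0.9, so such values are common among genes that differ between the groups.

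Sqstm1 encodes p62, an autophagy receptor that can bind KEAP1 in place of NRF2. It rose from 379, 361 and 338 CPM in WT replicates to 1023, 900 and 915 CPM in HepKO replicates (log2FC 1.40 ± 0.11, adjusted p = 1.65e-04). Of 18 such controllers and co-activators tested, Sqstm1 was the 1 gene called higher and 3 were lower (median -0.17). Of all tested genes, 19.5% were called higher and 18.7% lower. Cul4a, a cullin of another ligase that can target NRF2, fell from 149, 152 and 157 CPM to 87.1, 94.1 and 87.5 CPM (log2FC -0.77 ± 0.09, adjusted p = 5.77e-04). Ep300, an acetyltransferase and co-activator, fell with TMM (log2FC -0.37 ± 0.10, adjusted p = 0.0186), as did Gsk3a, a kinase that marks NRF2 for destruction (log2FC -0.27, adjusted p = 0.0461). Under library totals the call of Gsk3a turned to higher (log2FC 0.24, adjusted p = 0.0427), and Ep300 was not called (log2FC 0.14, adjusted p = 0.26). Gsk3a, and Ddi2, Cul7, Rnf7, Me1, Gsta3, Abcb6 and Psmd8 below, were named after their values were seen, to complete short counts. Without WT replicate 2, WT replicate 3 or HepKO replicate 3, 1 was lower. With library totals 11 were higher and 1 lower.

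Nfe2, the erythroid relative of NRF2, had 2 to 15 counts in WT and 33 to 57 in HepKO (log2FC 2.07 ± 0.70, adjusted p = 0.0475), and its call held in 1 of 6 fits that left out a library, the fit without WT replicate 1 (adjusted p = 0.0839 without HepKO replicate 1). Maf had log2FC 0.31 ± 0.12 and did not pass (adjusted p = 0.0739). Nfe2l3, Mafa and Nrl were not tested, with at most 16 counts in any library.

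Of 31 genes of other cullins, neddylation and the COP9 signalosome, 3 were higher and 7 lower (median -0.14). The share called in either direction was near the 38.2% of all tested genes, of which 19.5% were higher and 18.7% lower. With library totals 19 were higher and 1 lower. Cul4a, which is also in the list above, had the smallest p among them. Cand2, an exchange factor for cullins, rose from a very low level (0.676, 0.223 and 0.351 CPM) to 3.60, 3.21 and 3.61 CPM (log2FC 3.07 ± 0.42, adjusted p = 0.00122). Dcun1d2, a neddylation co-factor, fell with TMM (log2FC -0.78 ± 0.15, adjusted p = 0.00461) and was not called with library totals (log2FC -0.27, adjusted p = 0.153). The other 2 that rose were Cul7 (log2FC 0.53, adjusted p = 0.0187) and Rnf7, the RING partner of another cullin (log2FC 0.38, adjusted p = 0.0221), whose call ended without HepKO replicate 1 (log2FC 0.31, adjusted p = 0.0582). Without WT replicate 2 the counts were 1 higher and 4 lower, and 4 were lower without WT replicate 3 or HepKO replicate 2.

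Of 33 other BTB adaptors of CUL3 tested, 4 were higher and 10 lower (median -0.35, beside 0.01 for all tested genes). The share called in either direction was again near the 38.2% of all tested genes. By direction, 19.5% of all tested genes were higher and 18.7% lower, so the calls in this list leaned to lower. With library totals 9 were higher and 1 lower. The adaptor gene Klhl13 rose from 5.47, 5.93 and 5.15 CPM to 19.8, 14.9 and 14.0 CPM (log2FC 1.56 ± 0.17, adjusted p = 5.07e-04), and its log2FC was 1.39 without HepKO replicate 1. Ivns1abp (log2FC -0.77 ± 0.09, adjusted p = 7.75e-04) and Klhl21 (log2FC -0.85 ± 0.12, adjusted p = 0.00125) fell. With library totals Klhl21 was still called lower (log2FC -0.34, adjusted p = 0.0322), and Ivns1abp was not called (log2FC -0.26, adjusted p = 0.0501). Without WT replicate 3, 6 were lower, and without HepKO replicate 1, 8 were lower.

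Among genes that mature or degrade NRF1, 4 of 7 fell and 0 rose (median -0.42), beside 18.7% of all tested genes called lower and 19.5% higher. Vcp, the ATPase that pulls NRF1 out of the membrane, fell from 467, 466 and 469 CPM to 298, 300 and 315 CPM (log2FC -0.62 ± 0.09, adjusted p = 0.00175). Sel1l, of the same degradation pathway (log2FC -0.50 ± 0.09, adjusted p = 0.00301), and Ngly1, which removes sugars from NRF1 (log2FC -0.42 ± 0.08, adjusted p = 0.00474), were lower, as was Ddi2, the protease that cuts NRF1 (log2FC -0.68, adjusted p = 0.00547). With library totals 1 was higher and 0 lower (median 0.09), which is below the 0.52 of all genes.

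Of 34 NRF2 target genes, 23 were higher and 2 lower, with a median log2FC of 1.54, beside 0.01 for all genes and -0.05 for the regulators. The share of all tested genes called was 19.5% higher and 18.7% lower. This list was chosen with earlier results of these data known, so its counts are a description. Cbr3, a carbonyl reductase, had 0.574, 1.0 and 0.585 CPM in WT and 182, 143 and 172 CPM in HepKO (log2FC 7.82 ± 0.24, adjusted p = 1.32e-05), and the glutathione peroxidase gene Gpx2 (log2FC 7.06 ± 0.36, adjusted p = 6.30e-05) and the carbonyl reductase gene Cbr1 (log2FC 2.39 ± 0.13, adjusted p = 6.83e-05) rose as well. Gpx2 had 4, 4 and 1 counts in WT and 612, 646 and 491 counts in HepKO, so the size of its log2FC rests on very few WT reads. The 2 that fell were Me1, malic enzyme (log2FC -1.29, adjusted p = 0.0121), and Gsta3 (log2FC -0.94, adjusted p = 0.00173). With library totals 31 were higher and 1 lower, and without HepKO replicate 1 the counts were 21 and 2. With library totals Me1 was not called (log2FC -0.79, adjusted p = 0.0616). Members of the Gsta and Gstm families in this list are similar in sequence, so their counts are uncertain. Of 8 heme and iron genes under BACH1, 5 were higher and 1 lower (median 0.70), beside the same 19.5% and 18.7% of all tested genes. Slc48a1, a heme transporter (log2FC 1.86 ± 0.13, adjusted p = 1.19e-04), Blvrb, a biliverdin reductase (log2FC 1.5 ± 0.19, adjusted p = 8.80e-04), and Fth1, the ferritin heavy chain (log2FC 0.93 ± 0.15, adjusted p = 0.00218), rose, and Abcb6, a porphyrin transporter, fell (log2FC -0.88, adjusted p = 0.0195). The 1 lower call ended without WT replicate 1 or 3 and without HepKO replicate 2 or 3, and without HepKO replicate 1 the counts were 4 higher and 2 lower. With library totals 6 were higher and 0 lower (median 1.21, beside 0.52 for all genes), and Abcb6 was not called (log2FC -0.37, adjusted p = 0.207).

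The proteasome subunits that NRF1 is known to drive went the other way under TMM: 25 of 31 were lower and 1 higher (median -0.45). Among all tested genes 18.7% were called lower and 19.5% higher. Psmd1 (log2FC -0.84 ± 0.09, adjusted p = 5.21e-04), Psmb7 (log2FC -0.76 ± 0.09, adjusted p = 7.56e-04) and Psmd3 (log2FC -0.73 ± 0.09, adjusted p = 9.09e-04) fell, and Psmd8 rose (log2FC 0.78, adjusted p = 0.00148). Without WT replicate 3 or HepKO replicate 2, 17 were lower, and 20 were lower without WT replicate 1, WT replicate 2 or HepKO replicate 3. Without HepKO replicate 1, 25 were lower. With library totals 2 were lower and 6 higher (median 0.07, below the 0.52 of all genes), and Psmd3 was not called (adjusted p = 0.0769).

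**Figure D4:**
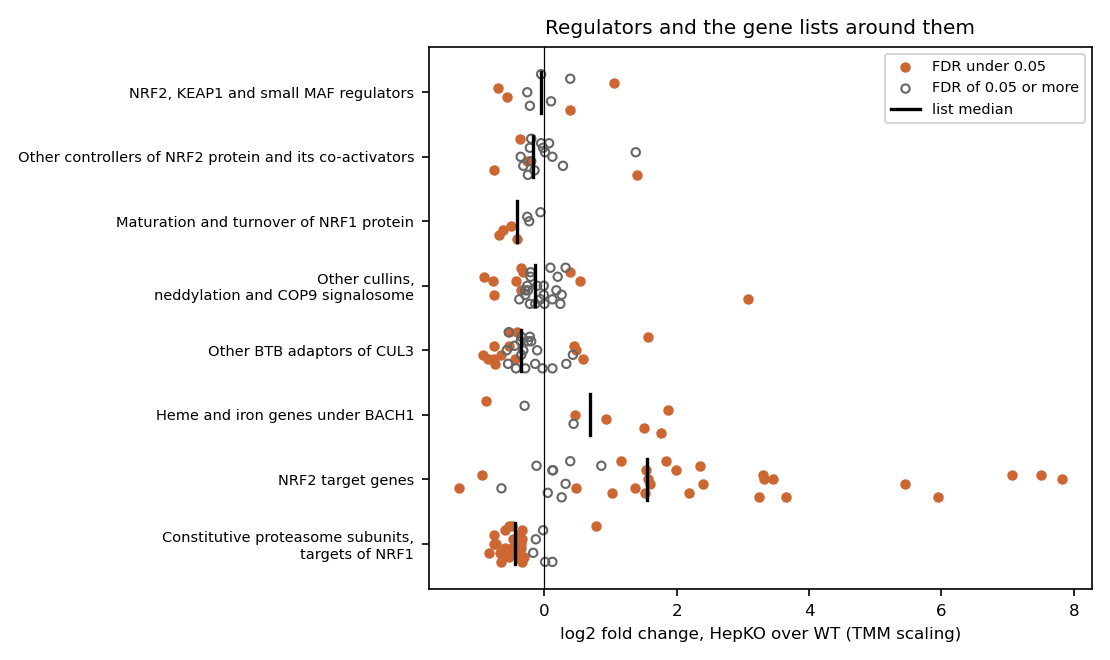
Log2 fold change under TMM scaling (horizontal axis, HepKO over WT) of every tested gene of the regulators and of 7 surrounding gene lists, filled where the adjusted p was under 0.05, with the list median as a bar. The 9 regulators lie between -0.70 and 1.05, NRF2 target genes reach 7.82, and proteasome subunits have a median of -0.45 (0.07 with library totals).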

How the data were processed

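Liver polyA RNA of 3 WT and 3 HepKO samples was sequenced. The deposited values are whole read counts for each gene. The submitters' processing notes list mm10, edgeR 3.40.2, Subread 2.0.0, featureCounts and STAR 2.7.11a, without order or settings. Of 56350 IDs, 55480 matched GENCODE M21 (GRCm38, the assembly of mm10) without version. Counts were filtered with filterByExpr, scaled by TMM (factors 0.824 to 0.860 in WT and 1.19 to 1.21 in HepKO) and compared with edgeR 4.0.16 under R 4.3.3 (quasi-likelihood, no covariates) and Benjamini-Hochberg adjustment. Standard errors are log2FC over the square root of F. Libraries of a group differed from each other by more than counting error (chi-square over degrees of freedom, 24.2 to 117). Alternatives were DESeq2 1.42.0, limma-voom (limma 3.58.1), other scalings and filters, a replicate block, a stricter threshold and leaving out each library. The test was tried on simulated counts in which far fewer genes changed than were called here, so that trial does not bear on the choice of scaling. The regulators and gene lists were chosen with earlier results of these data known. All regulators are named, and of each pathway list the 3 genes with the smallest p, except 1 result that is not reported here. Cell type marker lists, to which the same rule applied, are given as sums and counts. The exceptions are Spp1, Krt7, Krt19, Alb, Alas2, Hba-a1, Hbb-bt and Hbb-bs, which were named after their values were seen. Likeness used log2(CPM + 0.5) of protein-coding genes with a mean of at least 5 CPM. The length alternative for levels was added after seeing the data.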

Additional observations from a re-analysis of the deposited data

How the results depend on the processing

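Leaving out each library gave 1 to 2 regulators called higher and 2 called lower in every such fit; 2 higher and 2 lower were also found with DESeq2, limma-voom, RLE factors, TMM without the 20 most abundant genes and both other filters. At an adjusted p under 0.01, 1 regulator was higher and 2 were lower, with 1751 higher and 1693 lower genes in all, against 3125 and 3006 at 0.05. Library totals changed most: 7442 genes were higher and 937 lower, and 6 regulators were higher and 0 lower. The sign turned under library totals for Nfe2l1 (log2FC 0.29), Rbx1 (0.25) and Bach1 (0.46), none of which was called with TMM. The difference in the Mafg share was -24.0 percentage points, -24.4 with the longest coding transcript and -21.2 without length. The replicate numbers did not pair the libraries (correlation of same-numbered deviations -0.12, -0.07 and 0.00, and WT replicate 2 correlated best with HepKO replicate 1, 0.18). With the replicate block 2569 genes were higher and 2502 lower, and the regulators called were again 2 higher and 2 lower. Maff, with 206 to 712 counts per library, was the regulator with the fewest reads and the largest standard error.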
